A study of Mus musculus with 6 samples.

Results

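EGR, NR4A and IER genes and Srf were followed in the hearts of mice with heat stroke (HS) and of sham mice, 3 hearts in each group. The set was drawn up by name, with earlier results of these data known. It joins the EGR and NR4A families and the genes named IER, all immediate early genes, with the transcription factor that drives many of them. It holds 10 of the 57180 genes in the count table: Egr1, Egr2 and Egr3, Nr4a1, Nr4a2 and Nr4a3, Ier2, Ier3 and Ier5, and Srf. HS mice were male C57BL/6N animals of 6 to 8 weeks and 20 to 25 g, fasted, deprived of water and heated in a climate chamber (40 ± 0.5 °C, 60 to 65% humidity). When the core temperature reached 42 °C they were moved to 22 to 25 °C. Sham mice were of the same sex, strain, age and weight, also fasted and without water, and stayed at 22 to 25 °C and 60 to 65% humidity. Neither the time between 42 °C and collection of the heart nor the litter, day or batch of a heart is given in the sources used here, so p-values measure only the spread between these samples. The extraction text in the labels speaks of cell lines, whereas the tissue label names heart.

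Immediate early genes are switched on within minutes of a stimulus by proteins already present in the cell, without need for new protein. In one route, ERK kinases phosphorylate ELK-type cofactors that sit with SRF on a DNA sequence called the CArG box. In another, MRTF cofactors join SRF when actin filaments assemble, and phosphorylated CREB on the cyclic AMP response element (CRE) is a further input, best known for the NR4A genes. EGR proteins are zinc finger transcription factors and NR4A proteins are orphan nuclear receptors that act without a known natural ligand. In the heart, Egr1 and Nr4a1 are known as early responders to ischaemia, catecholamines and stretch.

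Egr1, Egr2, Nr4a1 and Nr4a2 were higher in all 3 HS hearts than in any sham heart, and Ier3 was lower in all 3. Egr3, Nr4a3, Ier2, Ier5 and Srf overlapped between the groups. Of all genes tested, 11.0% had all HS hearts above every sham heart and 10.9% had them all below. The 1 member below, of 10, is near that share. Within the EGR and the NR4A family, 2 of 3 members separated the groups and the remaining paralogue, Egr3 or Nr4a3, did not. No member passed an adjusted p of 0.05 in the quasi-likelihood test of edgeR across 14717 genes, where 9 genes (0.0612%) did, and 5 of 10 members had an unadjusted p under 0.05, as 13.6% of all genes tested did. Levels are given as CPM, counts scaled to a library of 1000000 with edgeR's TMM factors, from totals of 22098487 to 25855876 counts per heart, and adjusted p-values are by Benjamini-Hochberg over all genes tested.

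Promoter windows of the members show which binding sequences lie at their start sites, and 5 of them are printed because they hold a CArG box or the CRE core, a shorter form of the CRE. Windows run 250 bases before to 50 bases after a RefSeq start site (GRCm38.p6) and were found for 7 of the 10 members: Egr2, Nr4a1, Nr4a2, Nr4a3, Ier3, Ier5 and Srf. Each is written 5′ to 3′ on the strand of its gene. Capitals mark CArG boxes, and the CRE core TGACG on either strand (CGTCA when read on the gene's strand).
Egr2 (chr10:67537619-67537918, + strand): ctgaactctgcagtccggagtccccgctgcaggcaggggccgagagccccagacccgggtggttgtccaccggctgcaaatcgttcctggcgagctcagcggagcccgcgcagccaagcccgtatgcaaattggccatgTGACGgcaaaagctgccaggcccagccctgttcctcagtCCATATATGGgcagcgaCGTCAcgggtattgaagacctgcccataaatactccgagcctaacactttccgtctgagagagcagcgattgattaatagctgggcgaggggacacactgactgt
Srf (chr17:46556113-46556412, - strand): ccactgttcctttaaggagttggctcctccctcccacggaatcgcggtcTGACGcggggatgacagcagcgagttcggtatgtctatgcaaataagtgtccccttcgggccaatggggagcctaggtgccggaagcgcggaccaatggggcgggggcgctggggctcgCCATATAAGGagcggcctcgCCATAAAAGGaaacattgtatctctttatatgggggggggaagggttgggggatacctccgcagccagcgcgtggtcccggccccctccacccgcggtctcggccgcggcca
Nr4a1 (chr15:101266596-101266895, + strand): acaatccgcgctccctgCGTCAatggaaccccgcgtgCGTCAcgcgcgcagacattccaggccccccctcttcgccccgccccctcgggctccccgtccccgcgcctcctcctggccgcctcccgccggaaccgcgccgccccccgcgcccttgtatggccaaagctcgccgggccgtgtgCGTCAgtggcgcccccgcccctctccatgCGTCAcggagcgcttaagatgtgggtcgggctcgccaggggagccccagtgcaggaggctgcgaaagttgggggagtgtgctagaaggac
Nr4a2 (chr2:57123954-57124253, - strand): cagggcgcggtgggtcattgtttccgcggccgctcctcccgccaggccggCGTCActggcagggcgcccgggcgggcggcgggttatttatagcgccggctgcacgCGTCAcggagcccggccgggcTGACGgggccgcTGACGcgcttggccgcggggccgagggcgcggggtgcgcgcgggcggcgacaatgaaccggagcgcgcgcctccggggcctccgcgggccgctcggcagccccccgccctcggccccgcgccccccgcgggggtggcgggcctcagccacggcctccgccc
Nr4a3 (chr4:48045055-48045354, + strand): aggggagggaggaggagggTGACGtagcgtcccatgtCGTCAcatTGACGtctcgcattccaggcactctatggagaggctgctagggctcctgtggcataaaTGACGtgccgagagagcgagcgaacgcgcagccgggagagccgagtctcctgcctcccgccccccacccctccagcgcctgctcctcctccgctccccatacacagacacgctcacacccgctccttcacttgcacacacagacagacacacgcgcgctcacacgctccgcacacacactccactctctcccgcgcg

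A CArG box, searched by name on both strands, occurred in 1.81% of the 27025 genes with a window. Among the members it was in the windows of Egr2 and Srf. The Egr2 window at the start of its main transcript holds CCATATATGG, which begins 72 bases before the start, and the window of an Egr2 start 303 bases away holds CCTTTTTTGG. Srf carries a pair of boxes, CCATATAAGG from 82 bases and CCATAAAAGG from 62 bases before its start. The CRE core TGACG was searched after the windows had been seen, and it was in 23.0% of all genes with a window and in Egr2, Nr4a1, Nr4a2, Nr4a3 and Srf. Nr4a1, Nr4a2 and Nr4a3 each hold 4 such cores in 1 window, and 0.255% of all genes have a window with 4 or more. The Egr2 window holds 2 cores and the Srf window 1. The Nr4a3 window lies at a start 3809 bases from that of the transcript with most counts.

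The full CRE (TGACGTCA, 2.03% of genes), the AP-1 site (TGANTCA, 8.97%) and the NBRE that NR4A proteins bind (AAAGGTCA, 1.70%) matched in no member's window. The EGR site (GCGNGGGCG, 6.27% of genes) was in Nr4a1, Nr4a2 and Srf, 60, 74 and 101 bases before the start. A pair of heat shock element units (GAANNTTC or TTCNNGAA, 17.0%) was in Egr2 at the start 303 bases away, and the TATA box (TATAAA, 15.7%) was in Nr4a2 and Srf, for both of them on the opposite strand. These searches covered both strands, and the CRE overlaps its core. All counts of members were the same when only the 250 bases before the start were searched. Matches are descriptions of the letters in these windows, not of binding.

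Egr1 (ENSMUSG00000038418, chr18:34859823-34864984, + strand) encodes the founding EGR factor and had the highest mean TPM (a level per transcript length, given further on) of the members in HS hearts. It had 49.7, 109.5 and 54.4 CPM in HS hearts 1, 2 and 3, against 21.9, 5.29 and 7.13 CPM in sham hearts 1, 2 and 3. The groups did not overlap, and sham heart 1 was 4.14 times the lowest sham heart. The mean was 71.2 ± 33.2 CPM in HS hearts and 11.4 ± 9.10 CPM in sham hearts (SD, n = 3 each). On the log2 scale the fold change was 2.64 (SE 0.61, 95% interval 1.16 to 4.11), with an adjusted p of 0.254 (edgeR) and an unadjusted p of 0.00445. Without sham heart 1 it was 3.51, with an adjusted p of 0.275 (edgeR).

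Egr2 (ENSMUSG00000037868, chr10:67535475-67542188, + strand), best known for its part in myelination and in lymphocytes, ranked the HS hearts in the same order as Egr1 on the TMM scale. It had 1.95, 3.91 and 3.10 CPM in HS hearts, against 0.917, 0.504 and 0.344 CPM in sham hearts. Scaled by column totals alone, HS heart 3 fell below HS heart 1 for Egr1 (48.5 against 53.3 CPM) but not for Egr2 (2.76 against 2.09 CPM). HS heart 2 and sham heart 1 were again the highest of their groups, and the groups did not overlap. The log2 fold change was 2.32 (SE 0.43, 95% interval 1.33 to 3.32), with an adjusted p of 0.181 (edgeR). Behind these levels stand 54, 99 and 61 counts in HS hearts and 23, 12 and 8 counts in sham hearts. The split of Egr2 between its transcripts could not be read at this depth, since in sham heart 3 every count went to another transcript than in HS hearts 2 and 3.

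Egr3 (ENSMUSG00000033730, chr14:70077203-70082614, + strand), the paralogue studied in muscle spindles and lymphocytes, had 1.01, 1.97 and 1.12 CPM in HS hearts, against 1.71, 0.923 and 0.816 CPM in sham hearts. Sham heart 1 was above HS hearts 1 and 3, so the groups overlapped. The log2 fold change was 0.25 with a 95% interval of -0.71 to 1.20 and an adjusted p of 0.801 (edgeR), an interval that still allows a difference of more than 2-fold in HS hearts. The ratio of Egr1 to Egr3 within each heart, by CPM and so to be compared between hearts only, was 49.2, 55.5 and 48.7 in HS hearts and 12.8, 5.73 and 8.74 in sham hearts. The ratio of Egr2 to Egr3 was 1.93, 1.98 and 2.77 in HS hearts and 0.535, 0.545 and 0.421 in sham hearts. Both ratios were higher in every HS heart. These ratios were picked with the values in view and carry no test.

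**Figure D1:**
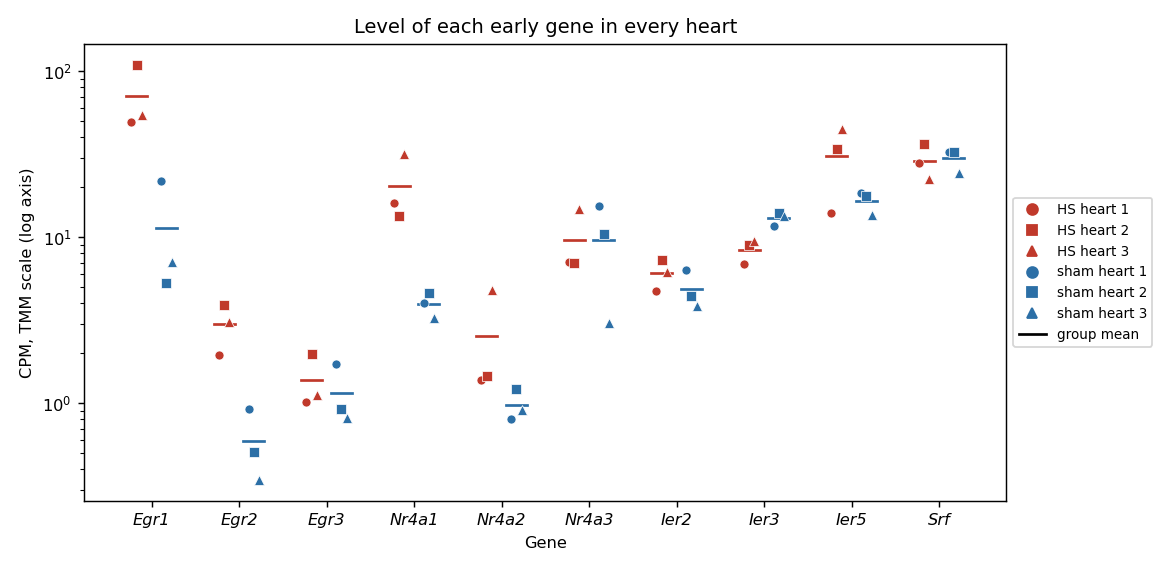
CPM on the TMM scale (log axis) of each of the 10 genes in every heart, HS hearts in red left of sham hearts in blue, with marker shapes for the heart number and a bar for the group mean. Egr1, Egr2, Nr4a1 and Nr4a2 have all red points above the blue ones, Ier3 has all red points below, and the other 5 genes overlap.

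Nr4a1 (ENSMUSG00000023034, chr15:101254269-101274795, + strand), known as Nur77, had the smallest p-value of the members. It had 16.2, 13.4 and 31.6 CPM in HS hearts, against 4.03, 4.62 and 3.26 CPM in sham hearts. The lowest HS heart was 2.91 times the highest sham heart, the widest gap among the members. Its log2 fold change was 2.36 (SE 0.35, 95% interval 1.53 to 3.18), with an adjusted p of 0.129 (edgeR) and an unadjusted p of 2.54e-04 that ranked 29 among 14717 genes. Leaving out a heart moved the call. The adjusted p was 0.0183 without HS heart 2 and 0.00176 without HS heart 3, and it lay between 0.123 and 0.613 without any other heart (edgeR). DESeq2, the tool of the study, gave an adjusted p of 3.68e-09.

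Nr4a2 (ENSMUSG00000026826, chr2:57106830-57124003, - strand), known as Nurr1 and needed for dopamine neurons, had 1.37, 1.46 and 4.78 CPM in HS hearts, against 0.797, 1.22 and 0.902 CPM in sham hearts. HS heart 3 stood far above the others, while HS hearts 1 and 2 were close to sham heart 2. Nr4a2 had 38, 37 and 94 counts in HS hearts and 20, 29 and 21 counts in sham hearts, so the gap to sham heart 2 rests on few counts. Its log2 fold change was 1.36 (SE 0.54, 95% interval 0.10 to 2.62), with an adjusted p of 0.342 (edgeR) and an unadjusted p of 0.0377. Without HS heart 3 it was 0.54, with an unadjusted p of 0.122 (edgeR). It was 1.66 without HS heart 1 (unadjusted p = 0.0177) and 1.63 without HS heart 2 (unadjusted p = 0.0211 by edgeR). The unadjusted p was 0.106 without sham heart 1, 0.0553 without sham heart 2 and 0.0979 without sham heart 3 (edgeR).

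Nr4a3 (ENSMUSG00000028341, chr4:48045153-48086447, + strand), known as Nor1, had 7.11, 6.95 and 14.7 CPM in HS hearts, against 15.3, 10.4 and 3.05 CPM in sham hearts. Sham hearts spread 5.02-fold, the widest sham spread of the members, and sham heart 1 was the highest of all 6 hearts. The log2 fold change was -0.01 (95% interval -1.39 to 1.36, adjusted p = 0.994 by edgeR), an interval that allows more than a 2-fold difference in either direction. The ratio of Nr4a1 to Nr4a3 by CPM was 2.27, 1.93 and 2.15 in HS hearts and 0.263, 0.444 and 1.07 in sham hearts, higher in every HS heart. The ratio of Nr4a2 to Nr4a3 was 0.193, 0.210 and 0.325 in HS hearts and 0.0521, 0.117 and 0.296 in sham hearts, which overlapped. These ratios, too, were picked with the values in view and carry no test.

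Nr4a1 counts were spread over 4 transcripts, and 1 of them, ENSMUST00000231153, annotated as a retained intron (chr15:101272861-101273847), was singled out after its values were seen. It had 5.61, 2.93 and 3.63 CPM in HS hearts, against 0.481, 0.0845 and 0.173 CPM in sham hearts. The estimated counts were 153.6, 73.9 and 72.4 in HS hearts and 12.4, 2.19 and 4.31 in sham hearts. Its fold change and its sham shares thus rest on few counts. The groups did not overlap, and the log2 fold change was 4.01 (SE 0.65) with an adjusted p of 0.196 over 30933 transcripts (edgeR), where 7 were called. The main protein-coding transcript, ENSMUST00000023779, had 9.51, 10.4 and 26.2 CPM in HS hearts, against 3.56, 4.27 and 2.42 CPM in sham hearts. Its log2 fold change was 2.16 (SE 0.47), with an adjusted p of 0.265 over transcripts (edgeR). The retained-intron transcript took 34.3%, 21.7% and 11.6% of Nr4a1 counts in HS hearts, against 12.2%, 1.99% and 5.67% in sham hearts. These shares overlapped (HS heart 3 and sham heart 1), and their difference had a p of 0.2 by an exact two-sided permutation test, with 0.1 the smallest p that 3 against 3 hearts allow. The estimated counts cannot say whether such reads come from unspliced precursor or from a finished transcript.

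**Figure D2:**
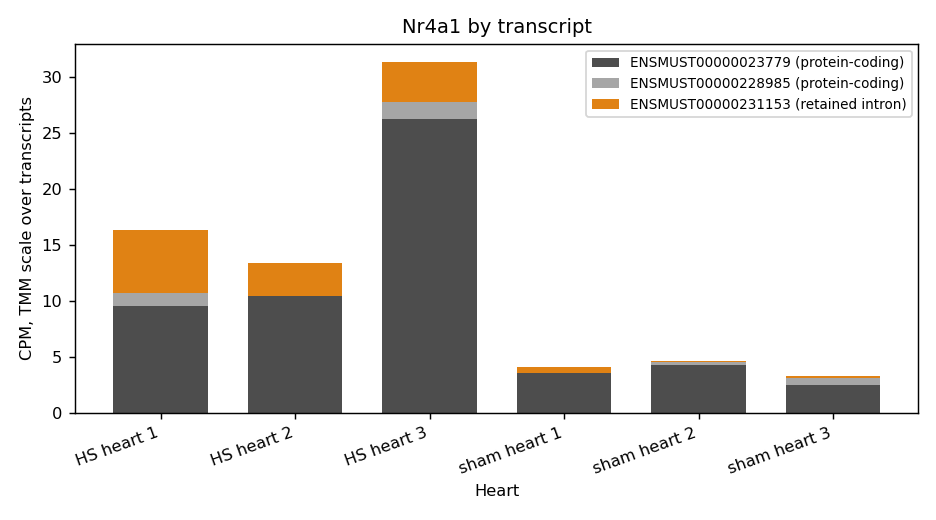
CPM (TMM scale over transcripts) of the 3 Nr4a1 transcripts that passed the filter, stacked for each heart, HS hearts left of sham hearts. The retained-intron part (orange) is 2.93 to 5.61 CPM in HS hearts and 0.0845 to 0.481 CPM in sham hearts.

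Ier2 (ENSMUSG00000053560, chr8:84661331-84662852, - strand), which encodes a short-lived nuclear protein, had 4.76, 7.27 and 6.20 CPM in HS hearts, against 6.30, 4.45 and 3.82 CPM in sham hearts. The groups overlapped, with sham heart 1 above HS hearts 1 and 3. The log2 fold change was 0.32 (95% interval -0.24 to 0.88, adjusted p = 0.559 by edgeR), an interval that leaves out a doubling.

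Ier3 (ENSMUSG00000003541, chr17:35821684-35822923, + strand), also called IEX-1 and known for its part in cell survival, was the 1 member whose HS hearts all lay below the sham hearts. It had 6.86, 8.96 and 9.45 CPM in HS hearts, against 11.6, 14.0 and 13.4 CPM in sham hearts. The highest HS heart was 0.812 times the lowest sham heart. edgeR gave a log2 fold change of -0.63 (SE 0.16, 95% interval -0.997 to -0.26), with an adjusted p of 0.254 (edgeR) and an unadjusted p of 0.00444. It was the tightest of the members within groups, with a 1.38-fold range over HS hearts and 1.20-fold over sham hearts.

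Ier5 (ENSMUSG00000056708, chr1:155096361-155099636, - strand), which in human cells is a target of the heat shock factor HSF1 and acts on that factor, had 14.1, 34.0 and 44.7 CPM in HS hearts, against 18.6, 17.6 and 13.5 CPM in sham hearts. HS hearts 2 and 3 were well above every sham heart, while HS heart 1 lay within the sham range. The log2 fold change was 0.89 (SE 0.39, 95% interval -0.04 to 1.83), with an adjusted p of 0.380 (edgeR). Without HS heart 1 it was 1.24, with an unadjusted p of 3.71e-04 and an adjusted p of 0.123 (edgeR), and without HS heart 3 it was 0.53. The ratio of Ier5 to Ier3 by CPM was 2.05, 3.79 and 4.73 in HS hearts and 1.60, 1.26 and 1.01 in sham hearts.

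Srf (ENSMUSG00000015605, chr17:46548329-46556175, - strand), the factor that binds the CArG box, had 27.9, 36.4 and 22.5 CPM in HS hearts, against 32.6, 32.8 and 24.3 CPM in sham hearts. The groups overlapped, and HS hearts held both the highest and the lowest value. edgeR gave a log2 fold change of -0.05 (95% interval -0.51 to 0.41, adjusted p = 0.922 by edgeR). Srf overlaps Gm26904, on the opposite strand, and Mir6976, and the sources used here do not state whether counting used strand.

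**Figure D3:**
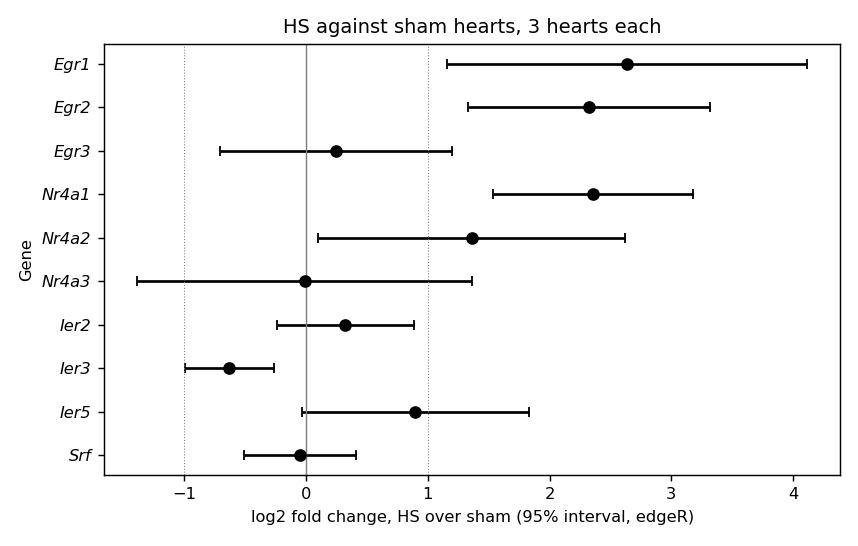
Log2 fold change of each gene, HS over sham, from edgeR, with points for the estimate and bars for its 95% interval (3 hearts per group, dotted lines at 1 and -1). The intervals of Egr1, Egr2, Nr4a1 and Nr4a2 lie above 0, that of Ier3 below 0, and those of the other 5 genes include 0.

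By the threshold the study used, an absolute log2 fold change over 1 and an unadjusted p under 0.05, here taken from edgeR, 4 of 10 members were higher in HS hearts, against 3.18% of all genes tested, and 0 of 10 were lower, against 0.707%. With the unadjusted p alone, 4 of 10 members were higher (8.83% of all genes) and 1 was lower (4.76%). The lowest HS heart exceeded the highest sham heart for 4 of 10 members and for 11.0% of all genes, and the highest HS heart was under the lowest sham heart for 1 member and 10.9% of all genes. In DESeq2, an adjusted p under 0.05 with higher values in HS hearts was reached by 3 of 10 members (Egr1, Egr2 and Nr4a1) and by 1.86% of the genes with an adjusted p. The median log2 fold change was 0.61 over the members and 0.01 over all genes tested, with 7 members above 0 and 3 below. The members were chosen with earlier results of these data known, so these shares describe the set and do not test it. For each of the 5 members whose hearts did not overlap, the exact two-sided permutation test gave the smallest p it can reach, 0.1. This follows from the lack of overlap and adds nothing to it.

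The members did not peak in the same heart. On the TMM scale HS heart 2 was the highest HS heart for Egr1, Egr2, Egr3, Ier2 and Srf, and HS heart 3 was the highest for Nr4a1, Nr4a2, Nr4a3, Ier3 and Ier5. HS heart 1 was the highest for no member and the lowest HS heart for 7. Among sham hearts, heart 1 was the highest for 6 members and heart 3 the lowest for 7. Scaled by column totals alone, Egr1 and Egr3 were lowest in HS heart 3 (48.5 and 0.996 CPM, against 53.3 and 1.08 CPM in HS heart 1). Nr4a2 was then lowest in HS heart 2 (1.45 against 1.47 CPM in HS heart 1). Ier3 was highest in HS heart 2 (8.91 against 8.42 CPM in HS heart 3), and Srf in sham heart 1 (33.8 against 33.4 CPM in sham heart 2). The peaks of the EGR and NR4A genes were in the same hearts on both scales. All 3 EGR genes thus peaked in HS heart 2 and in sham heart 1, and all 3 NR4A genes peaked in HS heart 3.

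**Figure D4:**
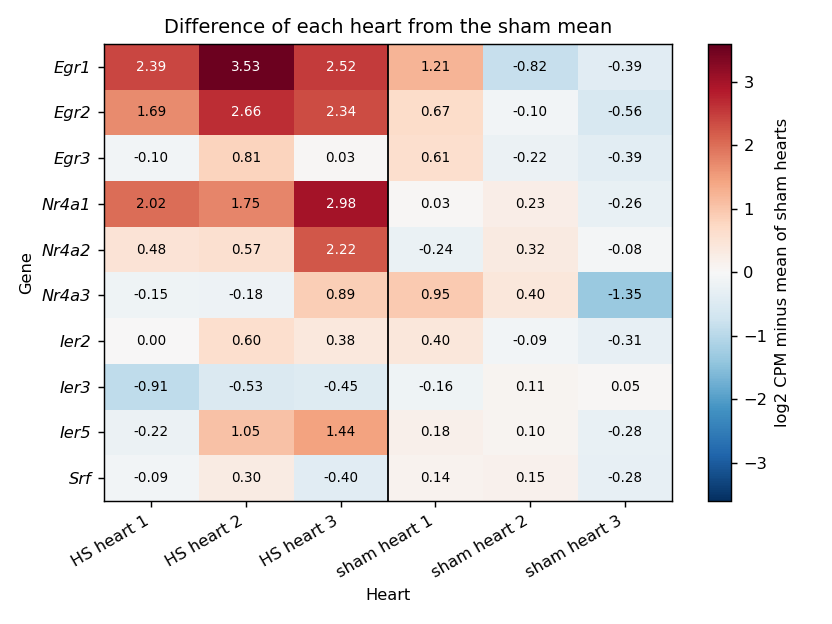
Difference of each heart from the mean of the sham hearts in log2 CPM, with genes as rows and hearts as columns, HS hearts on the left (red higher, blue lower than the sham mean). Egr1 reaches 3.53 in HS heart 2 and Nr4a1 2.98 in HS heart 3, while Nr4a3 runs from 0.95 in sham heart 1 to -1.35 in sham heart 3.

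Levels can be compared between genes only per transcript length, as TPM, here computed from the estimated counts and annotated lengths and scaled to a sum of 1000000. In HS hearts Egr1 averaged 21.1 ± 10.1 TPM, Srf 15.6 ± 4.56, Nr4a1 14.7 ± 3.82, Ier5 12.0 ± 4.93 and Ier3 9.79 ± 0.751 TPM (SD, n = 3). Below these stood Ier2 at 5.26 ± 0.965, Nr4a3 at 2.39 ± 0.801, Egr2 at 1.33 ± 0.385, Nr4a2 at 0.980 ± 0.545 and Egr3 at 0.477 ± 0.181 TPM. The first 5 did not differ from their neighbours in this order by more than their SDs, and Ier2 lay below Ier3 and above Nr4a3 by more than both SDs together. In sham hearts Srf at 16.1 ± 3.11 TPM and Ier3 at 15.7 ± 1.26 TPM led, ahead of Ier5 at 6.92 ± 1.33, Ier2 at 4.37 ± 1.30, Egr1 at 3.52 ± 2.90, Nr4a3 at 2.55 ± 1.70 and Nr4a1 at 2.44 ± 0.475 TPM. Srf and Ier3 lay above Ier5 by more than both SDs together, and the neighbours from Ier5 down to Nr4a1 differed by less than theirs. Egr3, Nr4a2 and Egr2 were between 0.276 and 0.425 TPM in sham hearts. By rank among the 10, Egr1 was at place 1 in HS hearts and place 5 in sham hearts, and Nr4a1 at place 3 in HS hearts and place 7 in sham hearts. The Nr4a1 level includes a retained-intron transcript of 893 bases. Without transcripts of that kind, an alternative added after the data were seen, Nr4a1 averaged 8.56 ± 3.89 TPM in HS hearts and 2.04 ± 0.438 TPM in sham hearts, at place 5 and place 7. In the same alternative Egr3 averaged 0.139 ± 0.241 TPM in HS hearts and 0.160 ± 0.0996 TPM in sham hearts.

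Of the genes around the members, AP-1 subunits, the FOS and JUN proteins and ATF3 that are induced by the same signals, had the highest median. Of 7 tested (of 8 listed), 4 had an unadjusted p under 0.05 and higher values in HS hearts and 0 were lower, and none passed the adjusted p (edgeR). Their median log2 fold change was 1.66. Of all genes tested, 8.83% were higher and 4.76% lower in HS hearts at that unadjusted p. The lists here and below were chosen with earlier results of these data known, so such counts do not test them. Jun, a subunit that pairs with FOS, had 105.4, 206.4 and 94.1 CPM in HS hearts, against 29.7, 35.9 and 31.3 CPM in sham hearts. Fos had 16.0, 34.4 and 25.98 CPM in HS hearts, against 5.42, 1.18 and 1.12 CPM in sham hearts. Both were highest in HS heart 2, as Egr1 was, and Fos shared the high value of sham heart 1. Fosb had 1.62, 1.26 and 2.54 CPM in HS hearts, against 0.598, 0.210 and 0.301 CPM in sham hearts.

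Of 29 other early response genes tested (of 31 listed), 9 were higher and 2 lower in HS hearts at an unadjusted p under 0.05. The shares over all genes tested were 8.83% and 4.76%. The median log2 fold change of the list was 0.34. Ccn1, a secreted matrix protein that is itself an SRF target, had 59.3, 101.9 and 115.1 CPM in HS hearts, against 28.8, 18.6 and 27.5 CPM in sham hearts. Arc, a neuronal early gene, had 1.73, 4.78 and 2.39 CPM in HS hearts, against 0.917, 0.378 and 0.601 CPM in sham hearts, and was highest in the same hearts as Egr1 in both groups. Zfp36l1, an mRNA decay factor, had a log2 fold change of 0.89 with an adjusted p of 0.194 (edgeR).

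Of 29 genes for regulators and partners of the members, 4 were higher and 2 lower in HS hearts at an unadjusted p under 0.05, against 8.83% and 4.76% of all genes tested. Of 6 SRF cofactors, 1 was higher at an unadjusted p under 0.05: Mrtfb, an MRTF cofactor, with a log2 fold change of 0.51 and an adjusted p of 0.264 (edgeR). Of 10 genes of the ERK cascade, 2 were higher (Braf, 0.43, and Rps6ka3, 0.67) and 1 lower (Rps6ka1, -0.53) on the log2 scale at an unadjusted p under 0.05. Of 6 genes for CREB and its coactivators, 1 was higher (Crtc3, 0.63) and 1 lower (Crem, -0.56). None of the EGR corepressors and relatives (3 tested), the RXR partners of NR4A (3 tested) or the IER relative Ier5l reached an unadjusted p of 0.05, and Nab2, a corepressor that EGR proteins induce, had a log2 fold change of 0.34. These transcript levels say nothing of the phosphorylation through which ERK, CREB and the ELK factors act.

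Of 23 cytoskeletal targets of SRF and MRTF, 9 were higher and 0 lower in HS hearts at an unadjusted p under 0.05. The shares over all genes tested were 8.83% and 4.76%. The median log2 fold change of the targets was 0.30. Acta2, smooth muscle actin, had 236.3, 144.8 and 205.3 CPM in HS hearts, against 86.3, 97.4 and 72.9 CPM in sham hearts. Cnn1, calponin of smooth muscle, had 17.2, 1.62 and 21.1 CPM in HS hearts, against 0.997, 1.93 and 1.42 CPM in sham hearts, and Myl9, a light chain of smooth muscle myosin, had 64.0, 17.4 and 64.3 CPM in HS hearts, against 11.4, 15.4 and 15.8 CPM in sham hearts. In HS heart 2, where Egr1 and Egr2 were highest, Cnn1 and Myl9 were near the level of sham hearts. The 7 smooth muscle and pericyte markers (4 higher and 1 lower at that p) summed to 1025, 854 and 1289 CPM in HS hearts and 736 to 815 CPM in sham hearts, highest in the hearts where Cnn1 and Myl9 were high. Acta2, Cnn1 and Tagln are in both lists, so 3 of the 4 higher markers are also among the 9 higher targets, and the part of smooth muscle cells in these counts was not tested.

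**Figure D5:**
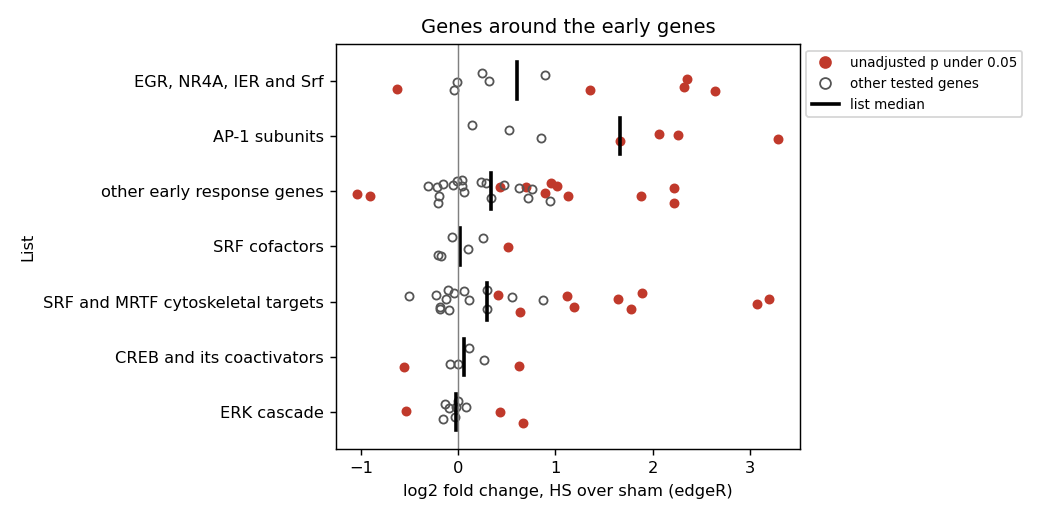
Log2 fold change (HS over sham, edgeR) of every tested gene in the 10-gene set and in 6 lists around it, filled red points for an unadjusted p under 0.05, open points for the rest and a bar for the list median. The medians are 0.61 for the EGR, NR4A, IER and Srf set, 1.66 for AP-1 subunits and 0.30 for the cytoskeletal targets.

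Hearts differed in more than the early genes. Myl7, the atrial myosin light chain, had 653.2, 0.158 and 477.5 CPM in HS hearts, against 0.797, 0 and 0.0859 CPM in sham hearts, and all 5 atrial markers tested of 7 listed were higher in HS hearts at an unadjusted p under 0.05 (edgeR). The summed level of the 7 atrial markers was 140 to 3755 CPM in HS hearts and 92.9 to 113 CPM in sham hearts, with Sln at 0 in HS heart 2. Bmp10 had counts only in HS heart 3 (81.5 CPM), so it was at 0 in HS heart 1 too. HS heart 2, with the lowest atrial sum of the HS hearts, had the highest Egr1 and Egr2, and Nr4a1 there was above the sham range. Compared with sham hearts, HS heart 2 alone gave log2 fold changes of 3.25 for Egr1, 2.71 for Egr2 and 1.76 for Nr4a1. They were 0.59 for Nr4a2, -0.54 for Ier3 and 1.04 for Ier5. This fit assumes that the single HS heart varies as sham hearts do, and it cannot measure the spread among HS hearts. Its p-values therefore describe that heart and not the HS group. Ier5 in HS heart 1, left out here, lay within the sham range. In that fit Egr2 (0.0199), Nr4a1 (0.00379) and Ier5 (0.0401) passed the adjusted p, as 0.834% of all genes did, and Egr1 did not (unadjusted p = 0.0642, adjusted p = 0.464 by edgeR). With the atrial marker level as a covariate, log2 fold changes were 3.00 (Egr1), 2.63 (Egr2), 1.81 (Nr4a1) and 0.71 (Nr4a2). With the covariate the unadjusted p was 0.371 for Nr4a2 and 0.067 for Ier3 (edgeR). The adjusted p was 0.922 for Egr1, 0.637 for Egr2 and 0.776 for Nr4a1 (edgeR). On a log2 scale the covariate stood at 8.39, 1.52 and 8.09 in HS hearts, against 2.37, 0.803 and 1.47 in sham hearts. Only HS heart 2 overlapped the sham hearts, so group and atrial level could barely be separated. The group term rests mainly on HS heart 2, so this fit is not a second check beside HS heart 2 alone.

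HS heart 3, where the NR4A genes peaked, stood apart from the rest. Its mean absolute log2 difference from the other hearts was 0.468 to 0.570, against 0.233 to 0.361 among the other 5. Summed fibroblast markers (7 of 7 tested, 3 higher at an unadjusted p under 0.05) were 553 to 1461 CPM in HS hearts and 473 to 601 CPM in sham hearts, and summed erythroid markers (5 of 5 tested, 0 at that p) were 154 to 1548 CPM in HS hearts and 137 to 316 CPM in sham hearts. HS heart 3 was the highest for both, and their part in the NR4A values was not tested. The 7 genes listed as ventricular markers check the heart label only. They are not all specific to the ventricle, so their sum does not measure ventricular content. All were detected and summed to 30233 to 37326 CPM in HS hearts and 32299 to 34146 CPM in sham hearts. Of these 7, Myl2 (-0.35) and Myl3 (-0.28) were lower in HS hearts on the log2 scale at an unadjusted p under 0.05, both lowest in HS hearts 1 and 3, while Myh6, the most abundant, was at 0.27 and did not pass. In bulk tissue, fewer cells of a type and less RNA per cell cannot be told apart. The heat shock genes checked the labels: Hspa1a, the inducible HSP70, had 715.1, 1138 and 1080 CPM in HS hearts, against 6.74, 2.18 and 2.75 CPM in sham hearts, and Hspb1, a small heat shock protein, had 143.2, 258.1 and 416.0 CPM in HS hearts, against 104.9, 85.0 and 56.5 CPM in sham hearts.

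Genes with the most similar values across the 6 hearts were found by the root mean square difference in log2 CPM, each gene set relative to its sham mean, among 10790 genes. Nearest to Egr1 were Fos (0.608), Slc5a3 (0.765), a myo-inositol transporter that responds to osmotic stress, and Nle1 (0.864). Fos was highest in HS heart 2, as Egr1 was, whereas Slc5a3 was highest in HS heart 3 and nearly level across sham hearts. Nearest to Nr4a1 were Slc5a3 (0.437), Tent5a (0.458) and Hsp90aa1 (0.520), the inducible HSP90. Slc5a3 was among the 9 genes past the adjusted p (0.0210 by edgeR), with 27.9, 42.0 and 56.1 CPM in HS hearts, against 6.14, 6.21 and 6.57 CPM in sham hearts. Nearest to Ier5 were Cxcr4 (0.190), a chemokine receptor, Ctla2a (0.190) and Ahsa2 (0.197), a relative of the HSP90 activator AHA1. Nearest to Ier2 were Tssc4 (0.107), Zfp513 (0.131) and Sh3rf1 (0.133), and nearest to Srf were Kdr (0.0542), the VEGF receptor of endothelium, Alg3 (0.0653) and Irgm2 (0.0678). Small distances for Ier2 and Srf go with their small differences between hearts.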

How the data were processed

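RNA of 6 mouse hearts (3 HS, 3 sham) was sequenced from poly(A)-selected libraries, 1 per heart. The authors used fastp for read quality control and Hisat2 for alignment. The deposited values are estimated counts for each transcript, without depth normalization. The submitters' processing notes name mm10. Which program counted the reads, with which annotation and strand setting, is not given in the sources used here. Groups came from the sample titles.

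Estimated counts of 149132 transcripts were summed per gene ID and rounded. Of 57180 genes, 27685 had a count and 14717 passed filterByExpr (minimum count 10, minimum total 15), all 10 members among them; of 33 member transcripts 23 had counts. The main test was the quasi-likelihood test of edgeR 4.0.16 (TMM, factors 0.892 to 1.07, robust, group as the only term; biological coefficient of variation 0.204), in R 4.3.3. Standard errors are the absolute log2 fold change over the square root of F. Alternatives were other scalings and filters, DESeq2 1.42.0, limma 3.58.1 voom, single hearts left out, the replicate number as a block, an atrial covariate and single transcripts. Scripts were tested on simulated data. Python 3.11.15 was used for sequences and TPM, with gene coordinates from GENCODE vM21 (GRCm38).

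A count of 0 allows up to 3 counts, or 0.108 to 0.152 CPM. Such limits cover counting error only. No other columns were present.

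The members and lists were chosen with earlier results of these data known. Named genes are all members, up to 3 genes with the smallest p per list, the 3 nearest genes to Egr1, Nr4a1, Ier2, Ier5 and Srf, and Hspa1a, Hspb1 and Myl7. Beyond this rule, Sln and Bmp10, Tagln, and the genes nearest to Nr4a3 were named after values were seen. Nr4a1 transcripts, within-heart ratios and the CRE core were picked after values or windows were seen. Protein sequences were not used here.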

Additional observations from a re-analysis of the deposited data

How the results depend on the processing

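Of 19 alternatives, the direction of Egr1, Egr2, Nr4a1, Nr4a2, Ier2, Ier3 and Ier5 held in each that gave a value, 18 for Egr2, which the filter of at least 10 counts in every heart removed. The number of genes past the adjusted p was 9, and became 16 with library size only, 84 without a filter, 4 with at least 10 counts in every heart, 351 in DESeq2, 49 in limma-voom with quality weights and 129 without HS hearts 1 and 3, and lay between 2 and 287 when a single heart was left out. The number of members past it was 0, and became 1 with library size only (Nr4a1), 1 without a filter (Egr2), 3 in DESeq2, 1 with quality weights (Nr4a1), 3 without HS hearts 1 and 3, and 0 to 1 with a single heart left out. The causes were not tested. With HS hearts 1 and 3 left out only 1 HS heart remained, so those counts describe that heart and not the HS group. Between 3 and 5 members met the study's threshold in every alternative. Nr4a3 turned to a log2 fold change of 0.13 in limma-voom, 0.083 with the replicate block and 0.16 for its main transcript (-0.45 to 0.49 with a heart left out). Srf turned to 0.26 with the atrial covariate and 0.28 without HS hearts 1 and 3 (-0.25 to 0.10 with a heart left out). Egr3 ran from -0.12 to 0.65 with a heart left out. Hearts of the same number share only a number: their deviations correlated by -0.06, 0.13 and 0.01, and the replicate block left 9 genes and 0 members past the adjusted p. Of 20 mean TPM levels, 16 moved by less than 1 SD when 200 bases were taken off each transcript length, and 4 by more. Without retained-intron transcripts 17 moved by less than 1 SD. At this depth the split of Egr2 and Egr3 between transcripts was not readable.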

Other observations

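Sham heart 1 was the highest sham heart for 6 of the 10 members on the TMM scale. Egr1 stood at 21.9 CPM there, against 5.29 and 7.13 CPM in sham hearts 2 and 3, with Fos at 5.42 CPM, against 1.18 and 1.12 CPM. Nr4a3 had 15.3 CPM in sham heart 1, against 10.4 and 3.05 CPM in sham hearts 2 and 3. The genes nearest to Nr4a3 by root mean square difference, chosen here after the values were seen, were Tnfrsf12a (0.309), a receptor of the TNF family, Calhm5 (0.341) and Rcan1 (0.365), an inhibitor and target of calcineurin. Rcan1 had 64.1, 102.0 and 145.7 CPM in HS hearts, against 165.0, 89.8 and 52.9 CPM in sham hearts, and Tnfrsf12a had 19.4, 29.9 and 52.3 CPM in HS hearts, against 48.0, 32.5 and 15.8 CPM in sham hearts. These genes were picked for their likeness over the same 6 hearts.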
